A study of Homo sapiens with 8 samples.

Results

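The T-box family of transcription factors was examined in HepG2, a cell line from a human hepatocarcinoma, after inhibition of the histone methyltransferases EZH1 and EZH2. The genes described are TBX1, TBX2, TBX3, TBX6, TBX15 and TBX19, found by symbol as 6 of the 25603 genes in the table. Of 17 human T-box genes looked for, 12 were found, and the other 6 (TBX4, TBX5, TBX10, TBX21, EOMES and MGA) are used for comparison. Cells were treated for 4 days with UNC1999 and valemetostat tosylate together, each at 1 µM (EZHi), or with DMSO vehicle, given as 0.2% in the labels but at another concentration in the study methods, and 4 libraries were made from each group. Both groups grew in the same medium with serum, insulin and dexamethasone. The inhibitors were given only in combination, so their separate effects cannot be told apart, and all libraries come from a single tumor cell line.

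T-box factors share a DNA-binding domain, the T-box, and act as activators or repressors that set the identity of mesodermal and other embryonic tissues. Many of their genes are silenced outside those tissues by the polycomb repressive complex 2 (PRC2), in which EZH1 or EZH2 places methyl groups on lysine 27 of histone H3. In liver, TBX3 is known for its role in hepatoblasts, where it favors growth and the hepatocyte fate.

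EZHi changed the T-box members unequally. TBX1 rose 2.75-fold from a very low level and TBX2 rose 1.38-fold from a moderate one, whereas TBX3, TBX6, TBX15 and TBX19 did not pass the test. Of the 6 members, 2 were called higher and 0 lower, where a gene is called when its adjusted p in limma is under 0.05. Among all 20153 genes tested, 8.85% were called higher and 4.27% lower, which makes 13.1% in both directions, and 3.21% were called with a rise of at least 2-fold, as was TBX1. With libraries of equal replicate number as a block, the same 2 members were called, against 30% of all genes. At an unadjusted p under 0.05, 2 members were higher and 0 lower. The median log2 fold change over the 6 members was -0.04, against -0.008 over all genes tested.

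The promoter sequences of 4 T-box genes are shown first, because PRC2 is known to act at promoters rich in CpG dinucleotides. TBX1 and EOMES are the T-box genes that rose at least 2-fold, while TBX6 and TBX19 are the other members with an entry in the promoter table of RefSeq (GRCh38.p14). Entries were found for 3 of the 6 members, without TBX2, TBX3 and TBX15. Each sequence covers 250 bases before and 50 bases after the start, and capitals mark CpG dinucleotides. The positions are chr22:19756453-19756752 (plus strand) for TBX1, chr3:27722274-27722573 (minus strand) for EOMES, chr16:30091875-30092174 (minus strand) for TBX6 and chr1:168280627-168280926 (plus strand) for TBX19.
TBX1: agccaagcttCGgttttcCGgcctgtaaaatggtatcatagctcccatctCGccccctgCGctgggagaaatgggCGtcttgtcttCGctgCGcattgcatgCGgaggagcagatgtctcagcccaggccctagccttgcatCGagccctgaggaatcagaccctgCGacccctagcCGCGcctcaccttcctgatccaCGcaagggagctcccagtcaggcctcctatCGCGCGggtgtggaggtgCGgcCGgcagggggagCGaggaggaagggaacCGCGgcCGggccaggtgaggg
EOMES: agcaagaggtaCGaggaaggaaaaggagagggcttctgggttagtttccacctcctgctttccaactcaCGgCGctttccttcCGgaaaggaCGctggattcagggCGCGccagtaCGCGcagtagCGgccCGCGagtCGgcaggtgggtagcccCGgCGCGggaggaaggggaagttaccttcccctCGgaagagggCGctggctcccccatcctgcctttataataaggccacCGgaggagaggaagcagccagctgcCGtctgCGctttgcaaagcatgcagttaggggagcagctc
TBX6: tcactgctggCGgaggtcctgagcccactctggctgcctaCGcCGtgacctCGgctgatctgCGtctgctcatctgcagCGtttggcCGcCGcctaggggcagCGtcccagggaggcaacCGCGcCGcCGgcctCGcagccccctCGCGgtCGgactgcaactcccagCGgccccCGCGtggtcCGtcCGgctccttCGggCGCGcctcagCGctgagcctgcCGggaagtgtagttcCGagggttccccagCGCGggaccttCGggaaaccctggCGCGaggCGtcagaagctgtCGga
TBX19: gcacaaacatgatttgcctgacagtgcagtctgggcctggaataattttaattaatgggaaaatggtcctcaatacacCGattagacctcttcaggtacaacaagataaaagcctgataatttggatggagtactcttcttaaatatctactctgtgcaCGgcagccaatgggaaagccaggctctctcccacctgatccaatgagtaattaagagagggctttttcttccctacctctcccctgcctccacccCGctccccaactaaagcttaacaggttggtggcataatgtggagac

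The TBX1 promoter held 22 CpG dinucleotides, more than 62.3% of the 34796 promoters of the same length, and that of EOMES held 21, more than 60.5%. The TBX6 promoter was denser, with 35 (more than 85.9%), and the TBX19 promoter held 3 (more than 18.3%). The median over all promoters was 14. Among these 4 promoters, those of the 2 genes that rose lay between those of the 2 members that were not called. Other T-box genes that were tested but not called held 21, 27 and 33 (entries of MGA), 18 (TBX4) and 9 (TBX10). The core of the T-box half-site, GGTGTGA or its reverse complement TCACACC, was found in 0 of the 4 sequences shown and in 3.46% of all promoters.

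Levels are given as length-corrected log2 values, which allow genes to be compared per length, and as estimated FPKM. In vehicle cells, TBX3 was the most abundant member, at 48.1 ± 6.82 estimated FPKM (SD, n = 4). It was followed by TBX2 at 3.26 ± 0.221 (SD, n = 4), TBX6 at 1.5 ± 0.157 (SD, n = 4), TBX19 at 0.480 ± 0.0280 (SD, n = 4), TBX1 at 0.222 ± 0.0107 (SD, n = 4) and TBX15 at 0.144 ± 0.0353 (SD, n = 4). The ranges of neighbors in this order did not overlap. In EZHi-treated cells the order was the same except that TBX1, at 0.618 ± 0.114 estimated FPKM (SD, n = 4), stood above TBX19, at 0.477 ± 0.0291 (SD, n = 4).

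**Figure D1:**
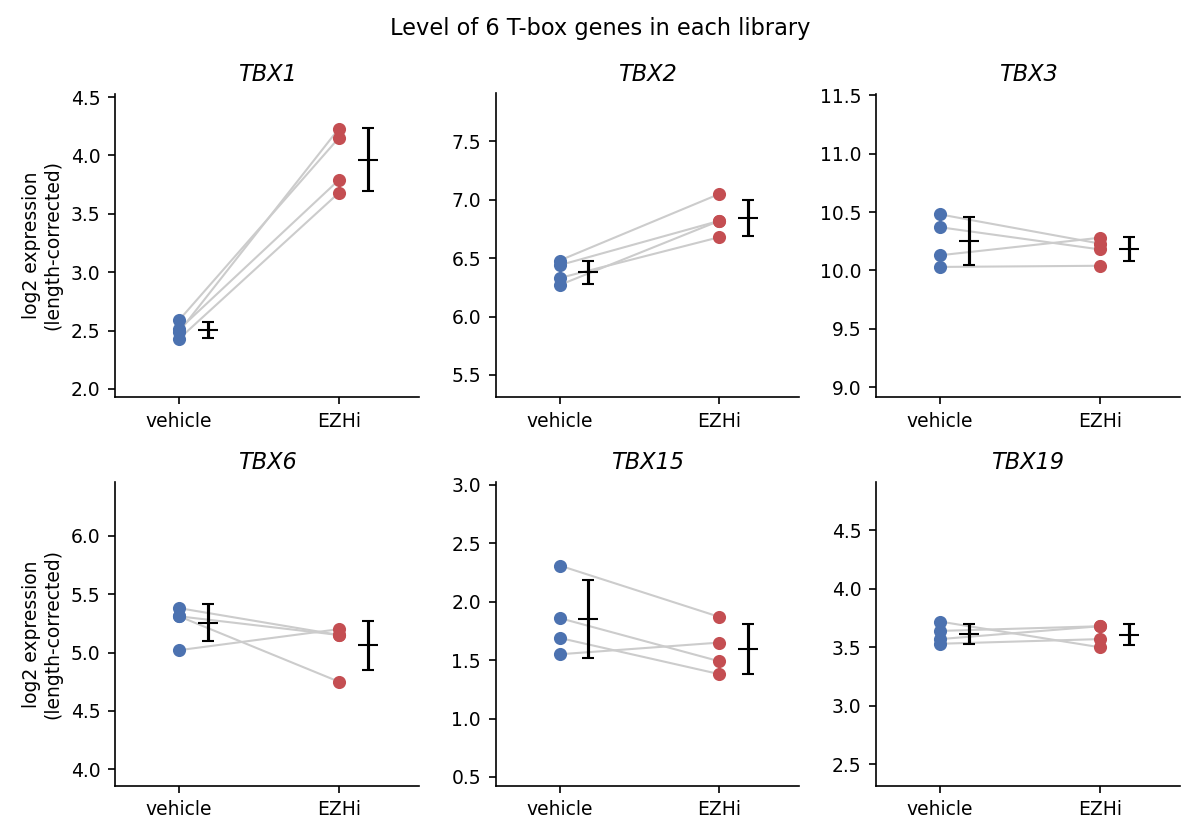
Length-corrected log2 expression (y axis) of the 6 T-box genes in each vehicle (blue) and EZHi (red) library, with grey lines joining libraries of equal replicate number and black marks for the mean ± SD (n = 4); every panel spans the same number of log2 units. The EZHi libraries lie above all vehicle libraries for TBX1 and TBX2, while the groups overlap for TBX3, TBX6, TBX15 and TBX19.

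TBX1 (ENSG00000184058, GRCh38 chromosome 22, 19756703 to 19783593, plus strand) directs development of the pharyngeal arches and the cardiac outflow tract and lies in the region lost in 22q11.2 deletion syndrome. Its log2 values in vehicle replicates 1 to 4 were 2.51, 2.49, 2.43 and 2.59. In EZHi replicates 1 to 4 they were 3.79, 4.23, 3.68 and 4.15. The lowest EZHi library was above the highest vehicle library, a separation seen in this direction in 10.7% of all genes, in the other in 7.93% and in either in 18.6%. Mean expression was 2.50 ± 0.07 (SD, n = 4) in vehicle and 3.96 ± 0.27 after EZHi (SD, n = 4), which gave a log2 fold change of 1.46 ± 0.13 (SE, limma adjusted p 7.72e-05). TBX1 was higher in 4 of 4 pairs of equal replicate number, by 1.26 to 1.75. The level rests on few reads, estimated at 7 to 8 normalized reads per vehicle library and 16 to 24 per EZHi library. For so few reads the deposited values shrink the spread between libraries, so the SE and p-value may be too small. Of the 7146 genes with a mean estimated FPKM from 0.1 to under 1, the class of TBX1, 13.8% were called higher. In exons, 280 of the 3930 bases of TBX1 are shared with GNB1L on the opposite strand, a gene whose log2 fold change was -0.28 (limma adjusted p 0.352).

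TBX2 (ENSG00000121068, chromosome 17, 61399843 to 61409466, plus strand) encodes mainly a repressor that acts in heart and limb development and restrains senescence. Its log2 values were 6.44, 6.33, 6.27 and 6.48 in vehicle replicates 1 to 4, and 6.82, 6.68, 6.82 and 7.05 in EZHi replicates 1 to 4. The groups did not overlap, although the gap between them was narrow. Mean expression was 6.38 ± 0.10 (SD, n = 4) in vehicle and 6.84 ± 0.15 after EZHi (SD, n = 4), a log2 fold change of 0.46 ± 0.10 (SE, limma adjusted p 0.0161). It was higher in 4 of 4 pairs, by 0.35 to 0.57. Of the 5198 genes with a mean estimated FPKM from 1 to under 10, the class of TBX2, 11.3% were called higher.

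TBX3 (ENSG00000135111, chromosome 12, 114670255 to 114684175, minus strand) is the closest relative of TBX2 and shares its repressor function. It was expressed at 10.03, 10.48, 10.13 and 10.37 on the log2 scale in vehicle replicates 1 to 4, and at 10.04, 10.23, 10.28 and 10.18 in EZHi replicates 1 to 4. The EZHi values all lay within the vehicle range. The log2 fold change was -0.07 (95% interval -0.30 to 0.16, limma adjusted p 0.728). With 2950 to 4017 normalized reads estimated per library, TBX3 was the most deeply covered of the 6 members. Its sign was not stable, as the change became 0.02 with quantile normalization.

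TBX6 (ENSG00000149922, chromosome 16, 30085793 to 30091924, minus strand) is needed in the presomitic mesoderm for the formation of somites. Its log2 values were 5.31, 5.38, 5.02 and 5.31 in vehicle replicates 1 to 4, and 4.75, 5.15, 5.20 and 5.15 in EZHi replicates 1 to 4. The groups overlapped, and EZHi replicate 1 was the lowest library. The log2 fold change of -0.19 was within the spread between libraries (95% interval -0.49 to 0.10, limma adjusted p 0.403).

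TBX15 (ENSG00000092607, chromosome 1, 118883046 to 118989556, minus strand) acts in skeletal development. Its log2 values were 1.69, 1.55, 2.31 and 1.86 in vehicle replicates 1 to 4, and 1.38, 1.65, 1.87 and 1.49 in EZHi replicates 1 to 4. These overlapping values correspond to only 9 to 17 normalized reads per library. The log2 fold change was -0.25 (95% interval -0.62 to 0.11, limma adjusted p 0.371), within the spread between libraries.

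TBX19 (ENSG00000143178, chromosome 1, 168280877 to 168314426, plus strand), also known as TPIT, drives the expression of POMC in corticotroph cells of the pituitary. Its log2 values were 3.53, 3.57, 3.72 and 3.64 in vehicle replicates 1 to 4, and 3.57, 3.68, 3.50 and 3.68 in EZHi replicates 1 to 4. The spread was small in both groups and the ranges overlapped. The log2 fold change was -0.01 (95% interval -0.21 to 0.20, limma adjusted p 0.974), and it turned to 0.09 after centring each library on its genes at or above 10 estimated FPKM.

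The changes of the members were then compared with each other, using the difference of their log2 values within each library. All 70 ways of assigning the libraries to groups were enumerated in a two-sided exact permutation test. TBX1 rose more than each of the other 5 members and TBX2 rose more than TBX3, TBX6, TBX15 and TBX19. These 9 of the 15 pairs reached the smallest possible p of 0.0286 (adjusted over 15 pairs, 0.0476). The change of TBX1 exceeded that of TBX2 by 1.00 on the log2 scale. For the closely related TBX2 and TBX3, the log2 level of TBX2 relative to TBX3 was -3.87 ± 0.23 with vehicle (SD, n = 4) and -3.34 ± 0.20 with EZHi (SD, n = 4), a difference of 0.53. The groups were barely separated in this measure, with a highest vehicle value of -3.59 and a lowest EZHi value of -3.55. TBX1 relative to TBX19 was -1.11 ± 0.12 with vehicle (SD, n = 4) and 0.36 ± 0.18 with EZHi (SD, n = 4), and TBX1 was the higher of both genes in 4 of 4 EZHi libraries. The remaining 6 pairs, all among TBX3, TBX6, TBX15 and TBX19, had differences between -0.25 and 0.18 with exact p from 0.229 to 0.886. With libraries paired by replicate number, each of the 9 differences was positive in 4 of 4 pairs, where the smallest p that exact sign flips of 4 pairs allow is 0.125.

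The other T-box genes showed the same mixture. EOMES (ENSG00000163508), a factor of early mesendoderm and of T and NK cells, was at 3.72, 4.28, 3.83 and 3.96 in vehicle replicates 1 to 4, and at 4.81, 5.61, 4.55 and 5.55 in EZHi replicates 1 to 4. The groups did not overlap, and EZHi replicates 2 and 4 were the highest. This gave a log2 fold change of 1.18 ± 0.25 (SE, limma adjusted p 0.0113). It was the only one of the 4 other T-box genes tested that was called. MGA, which joins a T-box to a helix-loop-helix domain and belongs to a variant polycomb complex, was abundant at 15.4 ± 0.879 estimated FPKM (SD, n = 4) in vehicle and changed by -0.02 (95% interval -0.18 to 0.15, limma adjusted p 0.912). TBX4, a limb and lung factor whose gene follows TBX2 on chromosome 17, changed by -0.25 (95% interval -0.82 to 0.33, limma adjusted p 0.600). TBX10 changed by -0.23 (95% interval -0.67 to 0.21, limma adjusted p 0.516). TBX5 and TBX21 were below the filter on low values and were not tested.

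**Figure D2:**
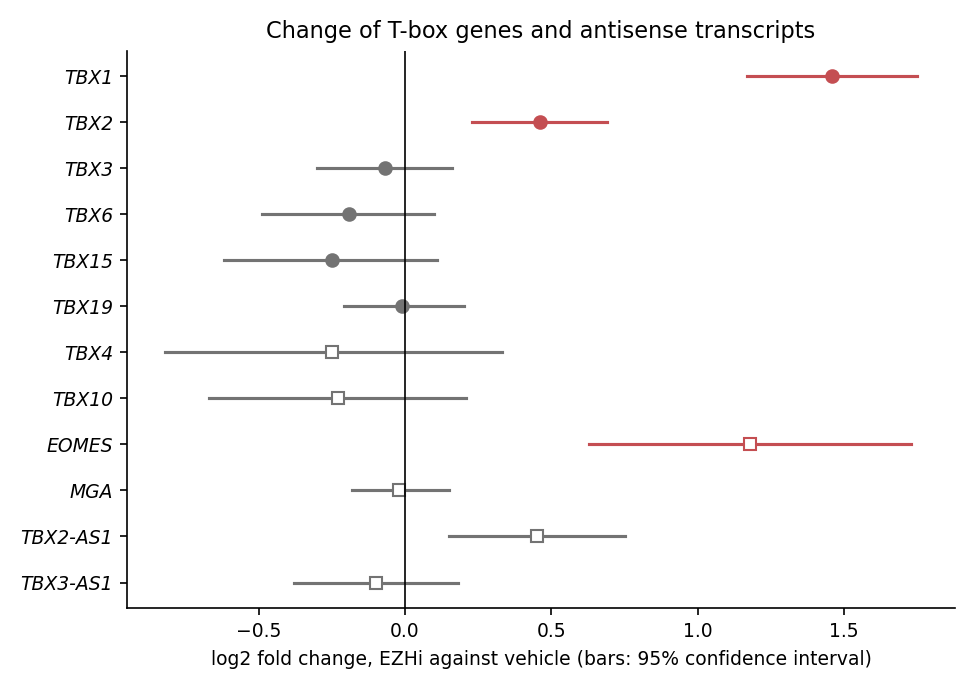
Log2 fold change (x axis, EZHi against vehicle) with its 95% confidence interval for the 6 members (filled circles), the other T-box genes tested and 2 antisense transcripts (open squares), with genes called by limma in red. TBX1 at 1.46, EOMES at 1.18 and TBX2 at 0.46 are the called genes; TBX2-AS1 lies at 0.45 and was not called.

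Antisense transcripts were available for TBX2 and TBX3. TBX2-AS1 (ENSG00000267280, chromosome 17, 61393455 to 61411555, minus strand) spans TBX2 but shares 0 exonic bases with it. It was at 7.98, 7.96, 8.0 and 8.24 in vehicle replicates 1 to 4, and at 8.18, 8.39, 8.62 and 8.82 in EZHi replicates 1 to 4, so that the groups overlapped by 1 library each. Its log2 fold change of 0.45 was close to that of TBX2 but did not pass the test (standard error 0.13, limma adjusted p 0.0536). With the replicate block it did (limma adjusted p 0.00241), as it also did without EZHi replicate 1 (log2 fold change 0.56, limma adjusted p 0.0196). TBX3-AS1, which shares 196 exonic bases with TBX3, changed by -0.10 (limma adjusted p 0.686). Reads were counted without strand, so that reads from shared exons could not be assigned to either strand.

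Genes surrounding the members were examined next, to see whether neighbors moved with them. Of 98 tested genes that start within 500 kb of a member, 7 were called higher (7.14%) and 3 lower (3.06%), near the shares over all genes. With the replicate block these numbers were 10 and 13, against 14.9% and 15.1% of all genes. Around TBX1, 22 genes were tested and 0 were called higher by limma (also 0 at an unadjusted p under 0.05), and the highest log2 fold change was 0.23. With the replicate block 6 were called lower and 0 higher. TBX1 thus rose by more than any of the genes tested around it. Around TBX2, 8 genes were tested and 1 was called higher, LINC02875, which starts 11.9 kb downstream of the TBX2 start. LINC02875 changed by 0.49 (limma adjusted p 0.0366), and only 1 of the 8 fits with a library removed, the one without EZHi replicate 1, still called it (adjusted p up to 0.104 in the others).

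**Figure D3:**
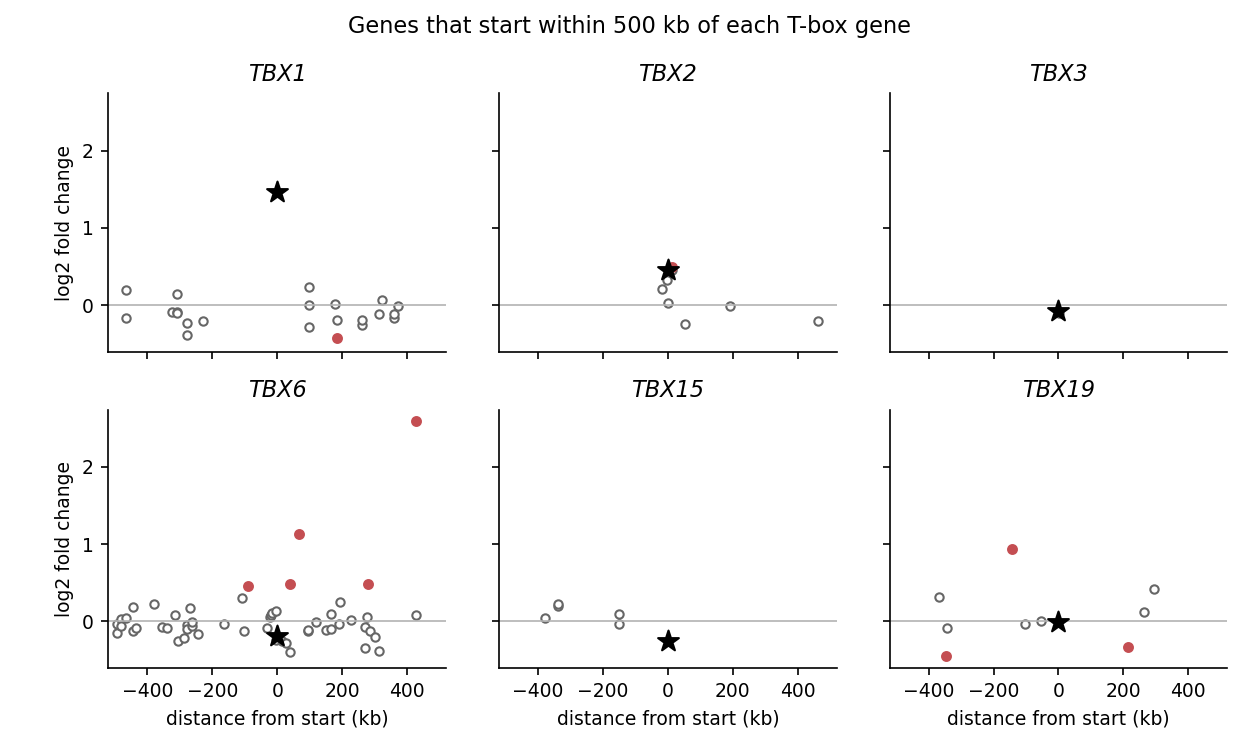
Log2 fold change (y axis, EZHi against vehicle) of tested genes by the distance of their start from that of each T-box gene (x axis, kb, positive downstream), with the T-box gene as a star, called genes in red and others open. TBX1 stands alone above its neighbors, whereas TBX6, itself not called, has 5 called neighbors; the single neighbor of TBX3 lies beneath the star.

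The region around TBX6 held the largest changes of any neighbor. Of 53 tested genes there, 5 were called higher (9.43%, against 8.85% of all genes) and 0 lower, although TBX6 itself was not called. The split was not stable, since the replicate block gave 6 higher and 5 lower, and an unadjusted p under 0.05 gave 6 and 6. SPN, the leukocyte surface sialophorin, rose by 2.59 in log2 units (limma adjusted p 1.64e-06), starting 428.9 kb downstream. DOC2A, a calcium sensor of synaptic vesicles, rose by 1.13 (limma adjusted p 0.000648). TLCD3B, PRRT2 and CORO1A rose by 0.49, 0.49 and 0.46. TLCD3B was near the filter on low values, at 0.111 estimated FPKM in vehicle and 0.155 after EZHi. That is about 4 normalized reads per vehicle library and 5 to 6 per EZHi library, so its SE and p-value may be too small. PRRT2 was no longer called in 5 of the 8 fits with a library removed (without vehicle replicates 1, 2 or 4 or EZHi replicates 3 or 4, adjusted p up to 0.0913), and CORO1A lost it without EZHi replicate 4 (adjusted p 0.0522). Around TBX19, GPR161, a receptor of the primary cilium, rose by 0.94 (limma adjusted p 0.00843). DCAF6 fell by 0.45 (limma adjusted p 0.000898), and ENSG00000228697 fell by 0.33 (limma adjusted p 0.0354), a call that held only without vehicle replicate 2 (adjusted p up to 0.096 in the other 7 fits). TBX15 had 5 tested neighbors and TBX3 had 1, of which 0 were called by limma, 0 with the replicate block and 0 at an unadjusted p under 0.05.

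Partners and upstream regulators of T-box factors known from other tissues were monitored as a list. Of 17 tested, 5 were called higher and 1 lower, where 8.85% and 4.27% of all genes were, with a median log2 fold change of 0.12. With the replicate block 7 were higher and 2 lower, against 14.9% and 15.1% of all genes. The block added FOXC1, SHH (limma adjusted p 0.00072) and, among those lower, TLE1 (0.0128). SALL4, a zinc-finger factor of pluripotent and fetal liver cells that works with TBX5 in limb and heart, rose by 2.54, with log2 levels of 4.89 ± 0.07 (SD, n = 4) in vehicle and 7.43 ± 0.28 after EZHi (SD, n = 4) (limma adjusted p 5.44e-06). NKX2-5, the cardiac homeobox partner of several T-box factors, rose by 1.73 (limma adjusted p 9.3e-05). SALL1 and the corepressor TLE3 each rose by 0.45. The GATA factors moved in opposite directions: GATA6 rose by 0.87 (limma adjusted p 0.0300) and GATA4 fell by 0.29 (limma adjusted p 0.0367). These calls were fragile, as GATA6 held only without vehicle replicate 2 or vehicle replicate 3 and GATA4 only without vehicle replicate 2 among the 8 fits with a library removed (adjusted p up to 0.0774 and 0.106). FOXC1, which acts upstream of TBX1 in the pharyngeal region, varied widely between vehicle libraries (4.18 ± 0.89, SD, n = 4), and its log2 fold change of 1.22 was not called (limma adjusted p 0.0663), but was with the replicate block (0.00196), without vehicle replicate 2 (0.0276) and without vehicle replicate 3 (0.0404). RIPPLY1 and RIPPLY3, which turn T-box factors into repressors, changed by -0.11 and 0.11 and were not called.

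Genes reported elsewhere as targets of T-box factors were a second list. Of 13 tested, 5 were called higher and 0 lower by limma (6 and 1 at an unadjusted p under 0.05), where 8.85% and 4.27% of all genes were. Their median log2 fold change was 0.40. With the replicate block 7 were higher and 1 lower, against 14.9% and 15.1% of all genes. No test of the list was run. CDKN2A, a senescence gene known to be repressed both by TBX2 and TBX3 and by polycomb, rose by 2.46, with log2 levels of 6.47 ± 0.18 (SD, n = 4) in vehicle and 8.93 ± 0.28 after EZHi (SD, n = 4) (limma adjusted p 8.06e-06). CDKN1A, another gene repressed by TBX2 and TBX3, changed by -0.01 (limma adjusted p 0.977), and CDH1 by 0.05 (limma adjusted p 0.751). SMARCD3, a chromatin remodeling subunit of heart progenitors and a target of TBX1, rose by 1.23 (limma adjusted p 0.00481). SNAI2 and SNAI1, repressors of epithelial genes, rose by 1.00 and 0.95. FLT4, the VEGF receptor of lymphatic vessels and a target of TBX1, rose by 0.75 from a level near the floor. FLT4 was at 0.0799 estimated FPKM in vehicle and 0.136 after EZHi. It reached the filter of 0.1 only through the EZHi libraries, so its call carries little weight. Of all genes from 0.1 to under 1 estimated FPKM, the class of SMARCD3, SNAI2 and FLT4, 13.8% were called higher. POMC, the target of TBX19, was below the filter and was not tested. The T-box factors were not perturbed on their own, so changes of these genes that follow them and changes that follow EZHi directly cannot be told apart.

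**Figure D4:**
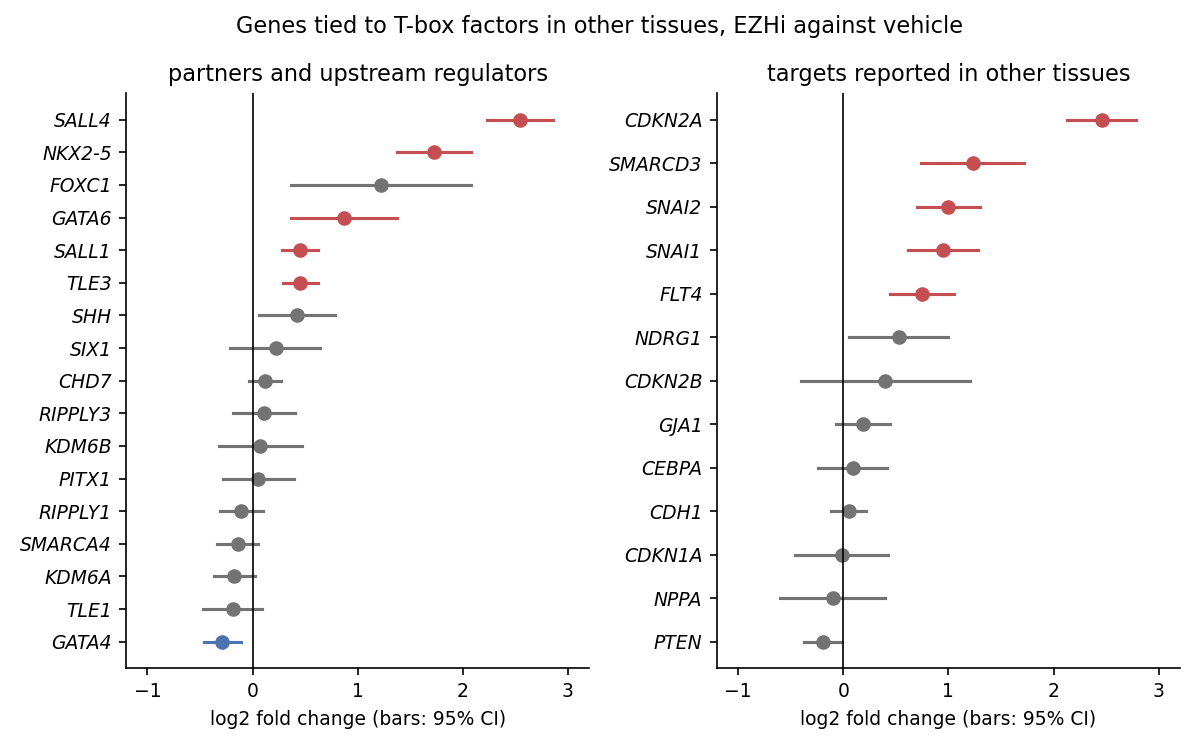
Log2 fold change (x axis, EZHi against vehicle) with its 95% confidence interval for the tested partners and upstream regulators (left) and the tested targets reported in other tissues (right), with genes called higher in red, called lower in blue and not called in grey. SALL4 at 2.54 and CDKN2A at 2.46 lie farthest to the right, and GATA4 at -0.29 is the gene called lower.

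For each called member, the 3 protein-coding genes with the most similar pattern over the 8 libraries were listed by Pearson r, as a description. For TBX1 they were MMP2 (0.995), SP140L (0.995) and ZFHX4 (0.994), and for TBX2 they were BTN2A2 (0.985), KIRREL2 (0.985) and ZFTA (0.981). The libraries share the treatment, and of 13434 genes searched 833 had an r above 0.9 to TBX1 and 318 to TBX2.

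Transcripts of PRC2 subunits and markers of cell types were also examined. The former do not measure the activity of the enzymes. For the treatment itself, the study reported less of the PRC2 histone mark in inhibitor-treated HepG2 cells by immunoblot. The transcripts of EZH1, EZH2, EED and SUZ12 changed by -0.07, -0.06, -0.11 and -0.11 and were not called, with 0 of 4 under an unadjusted p of 0.05 and 0 called with the replicate block. Of 10 hepatocyte markers, all were present, and 1 (FGB, encoding a fibrinogen chain) was called higher, where 8.85% of all genes were. With the replicate block 3 were higher and 1 lower, against 14.9% and 15.1% of all genes. In that fit APOA1 and APOB joined FGB (limma adjusted p 0.00812 and 0.00155) and ALB was lower (0.0314). Endothelial markers changed unequally, and no test of the set was run. Of 3 tested, CDH5 and VWF were called higher, by 2.28 and 1.45, where 8.85% of all genes were called higher. PECAM1 changed by 0.04 (limma adjusted p 0.867), TEK was at about 1 normalized read per library, and KDR was not analysed here. The summed level of the 4 endothelial markers ranged from 2.26 to 2.73 estimated FPKM in vehicle and from 3.43 to 7.22 in EZHi libraries. Of 3 fibroblast markers tested PDGFRA was called higher, by 0.92, and the summed level of 4 ranged from 12.4 to 15.2 and from 15.1 to 17.6. Of 3 leukocyte markers tested 0 were called by limma and 1, CSF1R, with the replicate block (limma adjusted p 0.0373) or without EZHi replicate 2 (0.00493), and the sum of 4 ranged from 1210 to 1690 and from 1090 to 1560, carried by LYZ. The part of these markers in the changes of T-box genes was not tested. In such bulk samples, more cells that express a gene and more RNA per cell cannot be told apart.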

How the data were processed

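RNA-seq was performed on 8 HepG2 libraries of paired 150 bp reads, 4 per group, grouped and numbered by their titles. The authors mapped reads to hg38 with HISAT2 (2.2.1 in the submitters' processing notes), counted them over exons without strand with HTSeq (0.9.1, minimum alignment quality 10), removed genes with fewer than 10 reads in all, and deposited length-corrected regularized log2 values from DESeq2 (1.40.2), although the table is named FPKM. The regularized log shrinks differences between libraries for genes with few reads, both between groups and within them. Their fold changes are thus understated. So is the spread between their libraries, on which standard errors and p-values rest. Values ran from -6.81 to 19.01 and their floor changed by -0.87 per doubling of transcript length. Of 25604 rows, 1 repeated row was dropped, and 25594 genes were found in GENCODE release 44 (GRCh38), which gave positions and mean transcript lengths.

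Read depth is unknown. Values multiplied back by length summed to 24.4 to 27.3 normalized reads per library in units of 1e6, and their mean of 25.6 gave the estimated FPKM and the normalized reads of a gene, which are on a common scale and are not counts. No counting interval can be given. The 20153 genes whose mean reached 0.1 estimated FPKM entered a two-sided limma fit (3.58.1, R 4.3.3) with a trended prior and a term for group, and p-values were adjusted over all of them by Benjamini-Hochberg. Deviations from the group means correlated by 0.22 to 0.63 between libraries of equal replicate number, so the numbers were taken as pairs and the replicate block was run as an alternative. The study describes the replicates as biologically independent, and p-values measure the spread between these libraries of a single cell line.

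Members and gene lists were chosen with earlier results of these data known. Named genes were the members, the other T-box genes, listed partners and targets called with at least 2-fold change, called neighbors, and the 3 most similar genes per called member. Some genes that meet this rule are not reported here. Other genes of these lists and all markers were named after their values were seen. Alternatives were other filters, scalings, pseudocounts, the prior, the block and leaving out each library. Python 3.11.15 with numpy 2.4.6, pandas 2.3.3, scipy 1.17.1 and matplotlib 3.10.9 was used.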

Additional observations from a re-analysis of the deposited data

Results flagged for a closer look

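The highest or lowest of 4 libraries was compared with the rest of its group, using the share of the group range that lies between it and the next library and the 95% critical value of Dixon. Among 28 groups of T-box genes and antisense transcripts 2 exceeded it, where chance gives about 1.4 (1 in 20). For TBX6, EZHi replicate 1 was at 4.75 against 5.15 to 5.20 in the other EZHi libraries (0.892 of the range). For TBX2-AS1, vehicle replicate 4 was at 8.24 against 7.96 to 8.0 in the other vehicle libraries (0.853 of the range).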

How the results depend on the processing

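TBX1 and TBX2 were called higher under every alternative in which they were tested, with log2 fold changes of 0.40 (pseudocount of 1) to 1.56 for TBX1 and 0.36 (quantile normalization, limma adjusted p 0.0488) to 0.56 for TBX2. With the filter raised to 1 estimated FPKM, TBX1, TBX15 and TBX19 were not tested, and the number of members called was 1, the number of targets called 2 and that of all genes 1579, since fewer genes enter. With the replicate block 2644 called genes became 6051 and 5 called targets became 8, and the block changed no call of a member. TBX3 became 0.02 with quantile normalization and 0.02 with centring on genes of at least 10 estimated FPKM, and TBX19 became 0.09 with that centring. Across the fits that each left out a library, TBX3 ranged from -0.14 to 0.00 and TBX19 from -0.04 to 0.03. None of TBX3, TBX6, TBX15 and TBX19 was called under any alternative. Centring moved the median of all genes from -0.008 to 0.088, and called genes then split into 2550 higher and 319 lower, against 1784 and 860.

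The difference between TBX2 and TBX3 was 0.53 in pairs (exact sign-flip p 0.125, the smallest possible) and 0.44 with a pseudocount of 1 (exact permutation p 0.0571). It ranged from 0.44 to 0.63 when a library was left out, where 7 libraries cannot give an exact p below 0.0571. Since the depth is unknown, the counting error behind the low levels of TBX1 and TBX15 could not be given.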

Other observations

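Some T-box genes and targets were too low to be tested. TBX5 was at -1.26 on the log2 scale in each vehicle library and at -0.91, -0.98, -1.10 and -0.98 in EZHi replicates 1 to 4, at about 1 normalized read per library. TBX21 was at 0.28 ± 0.05 with vehicle (SD, n = 4) and at 0.37 ± 0.07 with EZHi (SD, n = 4), and its groups overlapped. POMC was at 0.46 ± 0.04 (SD, n = 4) and 0.81 ± 0.06 (SD, n = 4). HAND1, a factor of heart and extraembryonic tissue, was at 0.61 ± 0.00 (SD, n = 4) and 1.26 ± 0.29 (SD, n = 4). For TBX5, POMC and HAND1 all EZHi libraries were above all vehicle libraries, which in this direction was so for 10.7% of the genes tested.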
